A study of Homo sapiens with 7 samples.

Results

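The nuclear genes for proteins of the mitochondrial ribosome were followed through doxycycline (Dox) treatment of human embryonic stem cells (hESCs). The members are the genes on chromosomes whose name is MRPL or MRPS followed by a number and at most 1 letter. This choice found 78 entries with 76 gene names among 20187 chromosome entries (22670 entries in all). By name, 29 belong to the small and 47 to the large subunit. MRPL30 and MRPS17 have 2 entries each, and the entry with the higher mean was used. Another 8 entries lie on alternate sequences, are listed at 0 and were left out.

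The cells were SEES-3 hESCs, an established line, grown without feeders, and all of them carried a Tet-On transgene and a constantly expressed rtTA, the protein that switches the transgene on when Dox is present. JMJD3c-hESCs carried HA-tagged JMJD3c, the catalytic domain of the H3K27 demethylase JMJD3, and were sequenced before Dox (Day 0) and after 1, 2, 3 and 4 days with it (1 µg/ml in the medium). JMJD3c mut-hESCs carried a form without catalytic activity and were sequenced untreated and on the fourth day of treatment. With 1 library for each of the 7 conditions, differences could not be checked against replicates, and p-values are not given. The lines are stably transfected clones, and no cells without a transgene were analysed here, so Dox, the induced protein and time in culture cannot be told apart within a line.

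Mitochondria keep their own small genome, which encodes a few core proteins of the respiratory chain together with the ribosomal RNAs and transfer RNAs used to make them. The proteins of the mitochondrial ribosome are all encoded in the nucleus, made in the cytosol and imported. Doxycycline is a tetracycline antibiotic that binds the small subunit of bacterial ribosomes and can also block translation in mitochondria, so it may act on these cells apart from switching on the transgene. The mRNA levels measured here do not report on ribosome activity.

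The values are FPKM (reads scaled by exon length and by the size of the library) with lower and upper 95% bounds from Cufflinks, which cover the estimate within a library but no variation from culture to culture. The JMJD3 gene (KDM6B) was at 3.45 and 2.40 FPKM in the untreated libraries of the JMJD3c and mutant lines. With Dox it was between 158 and 282 FPKM on the 4 days in the JMJD3c line and at 454 FPKM in the mutant line. These values do not separate reads of the transgene from those of the cell's own gene. Among 8 pluripotency markers, the summed level ranged from 1639 to 2420 FPKM over the libraries. All 8 were lower at Day 4 than at Day 0, 7 with intervals apart (background 7.0% of all genes). With Dox in the mutant line all 8 were lower, 5 with intervals apart (DNMT3B, LIN28A, POU5F1, SOX2 and TDGF1, background 1.68%). In the untreated mutant line the intervals of 4 (DNMT3B, POU5F1, SOX2 and UTF1) already lay below Day 0 (background 6.93%). That of 1, LIN28A, lay above (background 6.79%). The 8 mesendoderm markers were all higher at Day 4 than at Day 0 with intervals apart (background 5.15%). Their summed level ranged from 5.49 to 309.8 FPKM, and the part of these marker shifts in the results below was not tested. In bulk RNA, fewer cells of a type and less RNA per cell cannot be told apart. The sum over 4 neural markers stayed between 0.943 and 13.5 FPKM, and that over 5 fibroblast markers between 16.7 and 36.5 FPKM. Read counts were not used here. The steps between low FPKM values made Day 0 the shallowest library, with the others 1.37 to 2.07 times as deep.

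Short promoter stretches introduce the members. RefSeq promoters on GRCh38.p14, from 250 bases before to 50 bases after the start, were found for 67 of the 76 names. The 60 bases just before the start are shown, 5′ to 3′ on the strand of the gene. They are given for 3 of the most abundant members (MRPS34, MRPL20 and MRPL3) and for 2 members whose lowest library was Day 4 (MRPS18B and MRPS30). Capitals mark a match on either strand to CCGGAAG, the core letters bound by ETS factors such as GABPA, or to GCATGCGC, the core letters bound by NRF1. Both factors are textbook regulators of nuclear genes for mitochondrial proteins.
MRPS34 (chr16:1773135-1773194, minus strand): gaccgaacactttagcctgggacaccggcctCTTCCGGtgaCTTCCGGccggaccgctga
MRPL20 (chr1:1407294-1407353, minus strand): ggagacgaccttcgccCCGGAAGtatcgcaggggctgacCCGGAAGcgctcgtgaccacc
MRPL3 (chr3:131502972-131503031, minus strand): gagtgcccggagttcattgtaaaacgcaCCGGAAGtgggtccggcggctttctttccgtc
MRPS18B (chr6:30617780-30617839, plus strand): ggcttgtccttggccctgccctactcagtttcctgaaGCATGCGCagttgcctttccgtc
MRPS30 (chr5:44808887-44808946, plus strand): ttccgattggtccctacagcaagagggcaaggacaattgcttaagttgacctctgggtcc
MRPS34 and MRPL20 each have 2 ETS matches in this stretch, MRPL3 has 1, MRPS18B has an NRF1 match, and MRPS30 has neither sequence. In the whole window, CCGGAAG was found in 28 of the 67 member promoters (41.8%) and in 14.2% of all 15842 protein-coding promoters. AAGATGGCG, core letters bound by YY1, was in 13 (19.4%) against 2.74%. GCATGCGC was in 6 (8.96%) against 4.26%. TATAAA, the TATA box, was in 2 (2.99%) against 9.63%. Each was searched on both strands, and matches of different motifs could overlap. A match describes the letters and is not evidence of binding.

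Except for MRPL30, every member name was above 4 FPKM in all 7 libraries. These 75 members had mean levels from 9.59 FPKM (MRPL40) to 184 FPKM (MRPL51), with a median of 45.95 FPKM. FPKM is scaled by length, so these levels can be compared between genes. MRPL51, a large-subunit protein with no bacterial counterpart, was at 171, 156, 182, 194 and 193 FPKM on Days 0 to 4 in the JMJD3c line. In the mutant line it was at 192 FPKM without and 197 FPKM with Dox. By FPKM MRPL51 was the highest member in every library, but its FPKM lay above its own upper bound in all 7. Its interval in the untreated mutant line (112 to 158 FPKM) overlapped that of MRPL3 (145 to 173 FPKM), so its rank is uncertain. Next by mean FPKM were MRPL3 (116), MRPL20 (116), MRPS34 (109) and MRPL12 (98.1), whose ranges over the libraries overlapped one another. MRPL12 is a stalk protein of the large subunit. The lowest after MRPL40 were MRPS14 (10.3), MRPS36 (10.8), MRPL17 (13.02) and MRPS17 (17.5). MRPS36 carries a ribosomal name but is known as part of the oxoglutarate dehydrogenase complex.

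The levels were close to one another across libraries. The highest library was 1.63 times the lowest for the median member, and this ratio stayed under 2 for 62 members. MRPL30 is split between entries that overlap C2orf15 and each other, and its main entry was above 4 FPKM only at Day 2, with 6.11 FPKM. The 48 names with a bacterial homologue had library medians between 48.2 and 61.4 FPKM. The 28 mitochondria-specific names had library medians between 35.4 and 40.6 FPKM. These ranges of medians did not overlap, but the levels of single genes did. Of the 75 members above 4 FPKM, both the lowest (MRPL40) and the highest (MRPL51) are mitochondria-specific. The members lie on 21 chromosomes, with none on X or Y. MRPS11 and MRPL46, a protein of each subunit, are neighbours on chromosome 15 with 33 bases between their loci. The loci of 28 members overlap another entry, and reads there may be split between genes. The FPKM of 4 members lay outside their own interval, which were MRPL51, MRPS28 in 3 libraries, MRPS24 in 2 and MRPL12 in 1. The median distance from the centre of an interval to its bound was 24.7% of the FPKM at Day 0, the widest of all libraries, and 18.8% in the untreated mutant line, the narrowest. At this precision, the median member had to differ 1.65-fold for a fall at Day 4 to part its interval from that of Day 0.

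In the JMJD3c line with Dox, most members were slightly lower than at Day 0, and few differed beyond their intervals. At Day 4, 54 of 75 members were lower and 21 were higher, with a median log2 ratio of -0.22, which is 0.860 times Day 0. Log2 ratios were calculated after adding 1 to each FPKM. Over all 10247 genes above 4 FPKM in either library, the median was -0.06 and 44.8% were higher, against 28.0% of members. The shift was already present at Day 1, with 60 of 75 members lower and a median of -0.22. The medians at Days 2 and 3 were -0.19 and -0.16, so they showed no steady course over the days. These 4 comparisons share the Day 0 library. On all 4 Dox days, 41 of the 75 members were below Day 0 and 4 were above it, against 30.3% and 23.3% of the 9696 genes with a mean above 4 FPKM.

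By subunit the Day 4 medians were close. The median log2 ratio was -0.19 over 29 small-subunit names (6 higher, 23 lower) and -0.23 over 46 large-subunit names (15 higher, 31 lower). It was -0.23 over 47 names with a bacterial homologue and -0.19 over 28 mitochondria-specific names.

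At Day 4, the intervals of 6 members (8% of 75) lay below those of Day 0, namely MRPL2, MRPL10, MRPL15, MRPS18B, MRPS30 and MRPS34. Among all genes the background was 7.0%. No member's interval lay above, against 5.15% of all genes. The members' share of lower calls was therefore near the background. By the fold cutoffs of the study, 3 members were below 0.5 times Day 0 (4%, background 7.56%) and 0 were above 2 times (background 5.87%). Those 3 were MRPL53, MRPL40 and MRPL48, all with overlapping intervals.

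On the earlier days, calls were as few. At Day 1, 0 members were above (background 1.45%) and 3 below (MRPS34, MRPL15 and MRPL20, 4%, background 2.54%). At Day 2, MRPL17 was above (1.32%, background 2.73%) and MRPL3, MRPL11, MRPL15 and MRPL18 were below (5.26%, background 4.49%). At Day 3, 0 were above (background 4.45%) and MRPL15, MRPS18B and MRPS30 were below (4%, background 4.34%). MRPL15 was the member apart from Day 0 on all 4 days. Day 0, which these comparisons share, was its highest library. The share of all genes apart on all 4 days was not calculated.

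The members whose Day 4 intervals lay below those of Day 0 are described next. MRPS30 is a mitochondria-specific protein that sits in the large subunit in spite of its name. Its gene (ENSG00000112996, hg19 chromosome 5, 44809027 to 44815624) was at 45.7, 40.4, 38.1, 30.5 and 25.3 FPKM on Days 0 to 4, and at 52.5 FPKM without and 54.5 FPKM with Dox in the mutant line. The Day 4 interval, 18.6 to 31.1 FPKM, lay below that of Day 0 (34.5 to 52.9) and those of both mutant libraries (41.7 to 56.2 and 43.1 to 59.5). The values fell in order from Day 0 to Day 4, to 0.554 times Day 0, and the mutant line with Dox was 1.04 times its untreated library.

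MRPL10 encodes the protein that anchors the MRPL12 stalk. This gene (ENSG00000159111, chromosome 17, 45900638 to 45908900) was at 63.8, 54.9, 48.1, 49.1 and 34.6 FPKM over the 5 days, and at 52.3 and 43.9 FPKM in the mutant line without and with Dox. Day 4 was 0.542 times Day 0 and the mutant with Dox was 0.840 times its untreated library, so both lines were lower with Dox, the mutant with overlapping intervals.

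MRPS18B is the second of 3 paralogues related to bacterial S18. It was at 63.8, 53.0, 51.0, 45.0 and 41.3 FPKM over the 5 days, and at 57.2 and 49.9 FPKM in the mutant line (ENSG00000204568, chromosome 6, 30585486 to 30594172). MRPS18A was at 50.3, 46.0, 47.9, 51.6 and 48.1 FPKM, and at 43.8 and 42.1 FPKM in the mutant line. MRPS18C was at 45.3, 47.2, 45.0, 42.2 and 44.8 FPKM, and at 44.3 and 32.2 FPKM in the mutant line. Among the paralogues, MRPS18B had a Day 4 interval apart from Day 0, while MRPS18A and MRPS18C at Day 4 were 0.958 and 0.989 times Day 0 with overlapping intervals. Whether the paralogues differ from one another was not tested.

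MRPS34, a small-subunit protein without a bacterial counterpart, was at 149, 104, 118, 115 and 90.3 FPKM over the 5 days, and at 101 and 87.2 FPKM in the mutant line. MRPL15, a large-subunit protein with a bacterial homologue, was at 108, 63.5, 70.7, 72.1 and 69.5 FPKM, and at 92.2 and 76.9 FPKM in the mutant line. MRPL2, a protein near the catalytic centre of the large subunit, was at 66.6, 48.1, 49.0, 41.9 and 35.2 FPKM, and at 28.4 and 31.2 FPKM in the mutant line. For 5 of the 6 members with Day 4 intervals below Day 0, all but MRPS30, Day 0 was the highest of the 7 libraries, the untreated mutant line included. The MRPL2 locus overlaps that of KLC4.

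**Figure D1:**
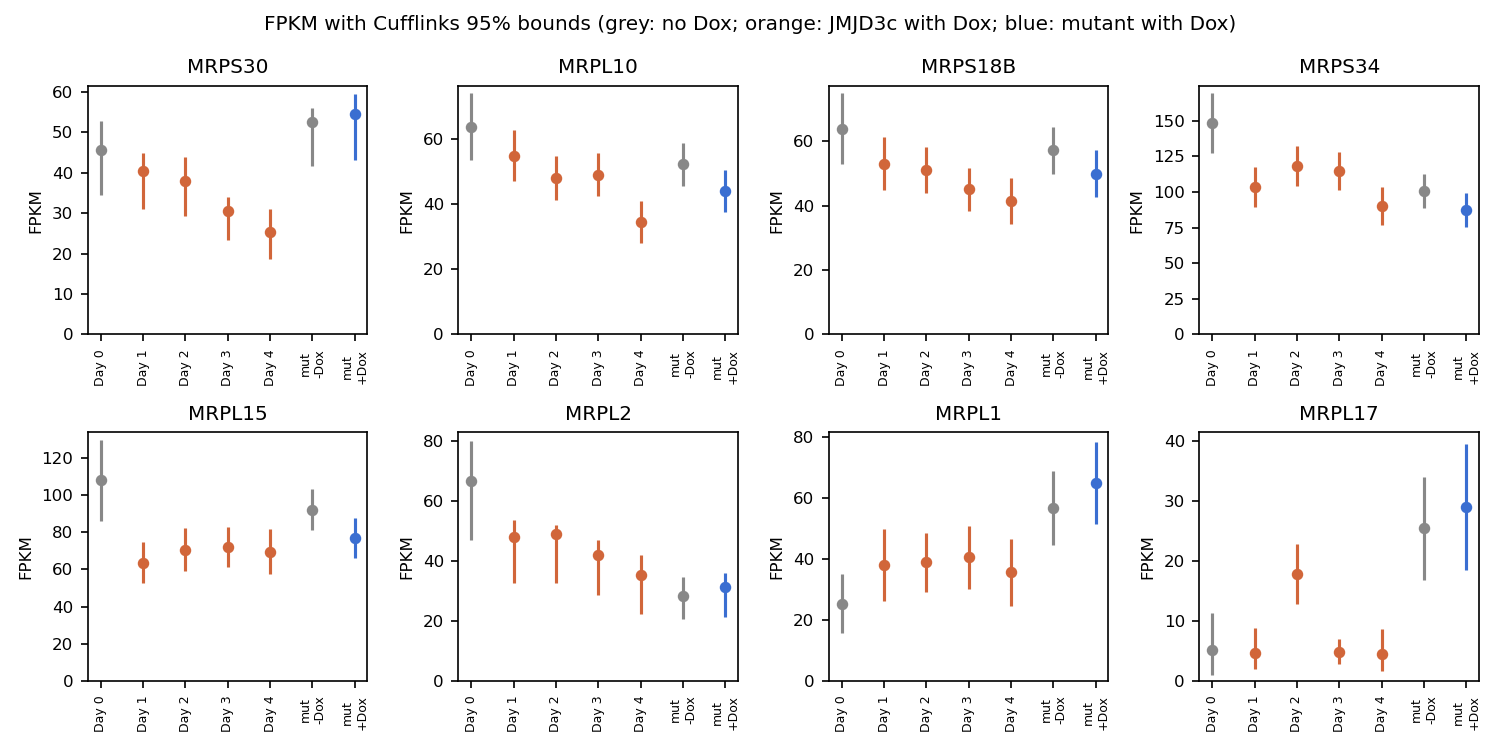
FPKM of 8 mitochondrial ribosome genes in the 7 libraries, with bars for the Cufflinks 95% bounds; grey marks libraries without Dox, orange the JMJD3c line and blue the mutant line with Dox. MRPS30, MRPL10 and MRPS18B are lowest at Day 4, all of the first 6 genes but MRPS30 are highest at Day 0, and MRPL1 and MRPL17 are higher in the mutant line.

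The largest falls by log2 ratio were in lower genes with wide intervals. MRPL53 was at 33.5, 20.3, 17.5, 15.7 and 13.7 FPKM, and at 13.4 and 15.2 FPKM in the mutant line. MRPL40 was at 11.4, 10.4, 8.12, 10.3 and 5.195 FPKM, and at 8.75 and 12.9 FPKM. MRPL48 was at 42.0, 26.3, 33.9, 14.2 and 20.6 FPKM, and at 21.4 and 28.1 FPKM. All 3 are mitochondria-specific proteins of the large subunit. Their log2 ratios at Day 4 were -1.232, -0.9998 and -0.993, followed by MRPL2 (-0.90) and MRPL10 (-0.86). MRPL53 and MRPL48 were also low in the mutant line without Dox, and the MRPL40 locus overlaps HIRA.

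The 5 largest rises at Day 4 were smaller, and all had overlapping intervals. They were MRPL1 (0.48), MRPL55 (0.41), MRPL39 (0.40), MRPL32 (0.31) and MRPS17 (0.26, log2 ratios). MRPL1, the stalk protein on the side where the spent transfer RNA leaves, was at 25.4, 37.9, 38.9, 40.6 and 35.7 FPKM, and at 56.7 and 65.05 FPKM in the mutant line. Its level was lowest at Day 0 and highest in the mutant line.

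In the mutant line, no member differed beyond its interval after 4 days of Dox. With Dox, 39 of 75 members were higher and 36 lower, with a median log2 ratio of 0.01, and over all 9736 genes 50.9% were higher. The intervals of 0 members were apart in either direction, against a background of 1.47% higher and 1.68% lower. Changes of more than 2-fold were seen in 0 members, against 1.25% higher and 1.53% lower among all genes. The fold by which a member had to be higher for its intervals to part was 1.51 for the median member and 1.201 for the most precisely measured, so smaller differences were not detectable by this rule at each member's own precision.

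The 5 largest rises with Dox in the mutant line were MRPL52 (0.57), MRPL40 (0.51), MRPL19 (0.45), MRPL48 (0.38) and MRPS31 (0.37, log2 ratios). The 5 largest falls were MRPL24 (-0.79), MRPL35 (-0.61), MRPS18C (-0.45), MRPL41 (-0.34) and MRPL23 (-0.32). MRPL24, a large-subunit protein with a bacterial homologue, was at 26.1 FPKM without and 14.7 FPKM with Dox, and in the JMJD3c line at 45.3, 30.01, 34.3, 28.8 and 32.0 FPKM. MRPL40 and MRPL48 were among the 5 largest falls in the JMJD3c line and among the 5 largest rises here.

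The effects of Dox in the 2 lines share no library and were set side by side. In both lines, 12 of 75 members were higher and 27 were lower, 16% and 36%, against 24.95% and 29.5% of 9450 genes. The intervals were apart in the same direction in both lines for 0 members, against 0.392% higher and 0.656% lower among all genes.

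The median shift between the untreated libraries was close in size to that of Day 4. In the untreated mutant line, 49 of 75 members were lower than at Day 0 and 26 higher, with a median log2 ratio of -0.20. The intervals of 3 members (MRPL1, MRPL3 and MRPL17, 4%, background 6.79%) were above those of Day 0. Those of 7 (MRPL2, MRPL23, MRPL28, MRPL52, MRPS2, MRPS21 and MRPS34, 9.33%, background 6.93%) were below. MRPL1 and MRPL17 were more than 2-fold higher (2.67%, background 2.78%), and MRPL2, MRPL52 and MRPL53 were below 0.5 times Day 0 (4%, background 7.01%). Day 0 was the highest library for 30 of 75 members, against 22.04% of all genes. It was the lowest for 2 members, and the share of all genes lowest at Day 0 was not calculated. The clone and the library cannot be told apart in this comparison.

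MRPL17, a large-subunit protein near the exit of the peptide tunnel, was at 5.09, 4.68, 17.7, 4.77 and 4.41 FPKM over the 5 days of the JMJD3c line. In the mutant line it was at 25.4 FPKM without and 29.0 FPKM with Dox. The gene (ENSG00000158042, chromosome 11, 6702013 to 6704632) was thus 4.996 times as high in the untreated mutant line as at Day 0. The single high day in the JMJD3c line was Day 2.

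When Day 4 was set against the untreated mutant line, the shift of the members was smaller. The median log2 ratio was -0.04, with 35 of 75 members higher. MRPL20 and MRPS21 were above (2.67%, background 8.65%), and 9 were below (12%, background 9.96%). Against the mutant line at Day 4 of Dox the median was also -0.04, with 4 members above (5.33%, background 7.58%) and 10 below (13.3%, background 8.67%). Below both untreated libraries at Day 4 were MRPL10, MRPS18B and MRPS30 (4% of 75, background 3.07%), and above both were 0 (background 3.3%). These 3 members were singled out after their values were seen.

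Most of the mRNAs that mitochondrial ribosomes translate were higher with Dox in both lines. All 13 protein-coding genes of the mitochondrial genome were measured. They share the same libraries, made from poly(A) RNA, so counts of these genes are not counts of independent observations. At Day 4, 11 of 13 were higher than at Day 0, with a median log2 ratio of 0.30 and 11 intervals above (84.6%, background 5.15%). In the mutant line 12 of 13 were higher with Dox, with a median of 0.14 and 10 intervals above (76.9%, background 1.47%). Among all genes, 0.392% had intervals above in both lines. The same 10 mitochondrial genes (MT-ATP6, MT-CO1, MT-CO2, MT-CO3, MT-CYB, MT-ND1, MT-ND2, MT-ND3, MT-ND4 and MT-ND5) were above in both, 76.9% of the list. Their levels are high, and the median distance from centre to bound was only 2.18% to 3.41% of the FPKM, so small differences part the intervals. For 11 of the 13 genes, all but MT-CO3 and MT-ND4, the deposited FPKM lay above its own upper bound in all 7 libraries, so the intervals do not enclose the values given and calls from them carry this limit. From the centres of the intervals, 11 genes were higher at Day 4 and 12 were higher with Dox in the mutant line.

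MT-ATP6, a subunit of the ATP synthase, was at 8381, 12144, 11814, 12371 and 12478 FPKM on Days 0 to 4, and at 8471 and 11535 FPKM in the mutant line without and with Dox. MT-CYB, the core subunit of complex III, was at 1995, 2538, 2774, 3013 and 2975 FPKM, and at 1842 and 2397 FPKM in the mutant line. For both genes every library with Dox was above both libraries without it. With Dox, MT-ATP6 was 1.49 times Day 0 and 1.36 times the untreated mutant line, and MT-CYB 1.49 and 1.30 times. The interval centres of MT-ATP6 gave 1.48 and 1.36 times.

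Not all 13 had this pattern. MT-ATP8 was at 6645 FPKM at Day 0 and 4934 FPKM at Day 4, and at 1303 and 1428 FPKM in the mutant line. MT-ND4L was at 4165 and 3485 FPKM, and at 1305 and 1199 FPKM. Both are short genes that overlap MT-ATP6 and MT-ND4, so their share of reads is uncertain. Their Day 0 values lay far above their own intervals, 966 to 1248 FPKM for MT-ATP8 and 1316 to 1600 FPKM for MT-ND4L. MT-ND1, a subunit of complex I, was at 2699, 2516, 2184, 2236 and 3117 FPKM, lower on Days 1 to 3 than at Day 0. On Days 1, 2 and 3 the intervals of 6 genes lay above Day 0 while those of 2, 2 and 3 lay below. The background on these days was 1.45%, 2.73% and 4.45% above, and 2.54%, 4.49% and 4.34% below.

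The lines also differed in these genes without Dox. In the untreated mutant line the intervals of 8 of 13 lay below Day 0 (61.5%, background 6.93%) and 1 above (7.69%, background 6.79%). Against Day 0, the mutant line with Dox had 5 above and 5 below, so the direction there depends on the untreated library used. The shares over all genes were not calculated for that comparison. Day 4 against the untreated mutant line had all 13 genes higher, with 12 intervals above (92.3%, background 8.65%) and 0 below (background 9.96%). The 13 genes together made up 10.2% of all FPKM at Day 0 and between 11.8% and 12.8% on the Dox days. In the mutant line they made up 9.23% without and 10.8% with Dox. These sums include MT-ATP8 and MT-ND4L, whose values are uncertain and were much lower in the untreated mutant line than at Day 0. The difference between the lines in these sums therefore carries that limit.

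**Figure D2:**
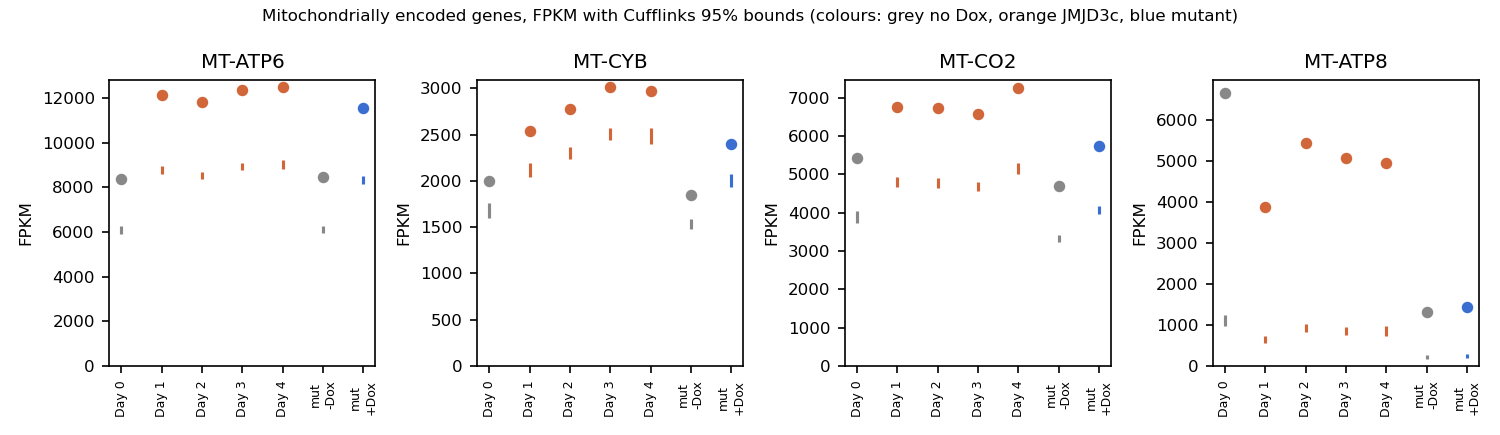
FPKM of MT-ATP6, MT-CYB, MT-CO2 and MT-ATP8 in the 7 libraries (points) with Cufflinks 95% bounds (bars, which lie below the points as deposited); grey marks libraries without Dox, orange the JMJD3c line and blue the mutant line with Dox. MT-ATP6 and MT-CYB are above both untreated libraries in every library with Dox, while MT-ATP8 is highest at Day 0 (6645 FPKM) and lowest in the mutant line.

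The other listed nuclear genes, for mitochondrial translation, ribosome assembly, mitochondrial DNA and transcription, and chaperones and proteases, were also mostly lower at Day 4. Of 87 listed genes above 4 FPKM on average, 24 were higher (27.6%, against 44.8% of all genes) and 63 lower at Day 4, with a median log2 ratio of -0.20, and in the mutant line 47 were higher and 40 lower. By list, the Day 4 medians were -0.28 over 7 other mitochondrial ribosome proteins, -0.06 over 12 translation factors and -0.28 over 17 aminoacyl-tRNA synthetases. They were -0.11 over 25 assembly factors, -0.16 over 14 genes of mitochondrial DNA and transcription and -0.38 over 12 chaperones and proteases. In the mutant line these medians lay between -0.08 and 0.05.

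At Day 4 the intervals of 6 of the 87 were below Day 0 (6.90%, at the background of 7.0%) and 0 above (background 5.15%). They were CLPX, the unfoldase of a matrix protease, PARS2, which charges the proline transfer RNA, TUFM, the elongation factor that delivers transfer RNAs, NOA1, a GTPase of ribosome assembly, LRPPRC, which stabilises mitochondrial mRNAs, and TRAP1, a matrix chaperone. CLPX was at 35.6, 14.4, 13.3, 16.1 and 12.4 FPKM on Days 0 to 4, and at 21.7 and 23.4 FPKM in the mutant line. TUFM was at 143, 129, 118, 126 and 104 FPKM, and at 114 and 119 FPKM.

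The 3 largest rises at Day 4 were YBEY (1.30), METTL15 (0.82) and MTERF (0.66), and the 3 largest falls CLPX (-1.45), PARS2 (-1.09) and MTERFD2 (-0.92, log2 ratios). YBEY, a ribonuclease of ribosome assembly, was at 10.4, 33.5, 32.5, 34.8 and 26.9 FPKM, and at 29.2 and 20.1 FPKM in the mutant line, so Day 0 was the lowest library. In the mutant line the 3 largest rises were TACO1 (0.39), DAP3 (0.35) and GRPEL1 (0.32) and the 3 largest falls MTFMT (-0.65), YBEY (-0.52) and NSUN4 (-0.49). The intervals of 1 gene were apart with Dox there, those of SSBP1, a mitochondrial DNA-binding protein, at 251 FPKM without and 256 FPKM with Dox. The untreated value lay above its own interval (165 to 212 FPKM) and the value with Dox inside its own (228 to 285 FPKM), so the call rests on bounds that do not enclose the value. SSBP1 was at 255 FPKM at Day 0 and 277 FPKM at Day 4.

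Other large nuclear families were also lower at Day 4 than at Day 0, but mostly higher than in the untreated mutant line. The median log2 ratio was -0.34 over 80 cytosolic ribosomal protein genes, with 3 higher (3.75%) and 46 intervals below Day 0 (57.5%). Over 81 genes with names of nuclear subunits of oxidative phosphorylation it was -0.24, with 15 higher (18.5%) and 17 below (21.0%). This list was drawn by name alone. It holds the readthrough entries ATP5J2-PTCD1 and NDUFC2-KCTD14, both among the 17, and the pseudogene entry COX6A1P2. Among all genes 44.8% were higher and the intervals of 7.0% were below. Between the untreated libraries these medians were -0.67 and -0.43, against -0.20 for the members. With the untreated mutant line as the reference, the Day 4 medians were 0.32 and 0.14. In that comparison 59 of 80 cytosolic and 54 of 79 oxidative phosphorylation genes were higher. The intervals of 48 and 17 were above (background 8.65%), and those of 7 and 5 below (background 9.96%). The direction at Day 4 thus depends on the untreated library used. Library medians of FPKM were 532 to 880 for the cytosolic family and 43.4 to 50.9 for the members. Their shares of intervals apart may therefore not rest on like precision. Whether the families differ in their shift was not tested.

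Base composition moved with these ratios. Over the 73 members with a transcript length and GC content, Spearman's rho between the log2 ratio and GC content was -0.46 between the untreated libraries, -0.31 at Day 4 against Day 0 and -0.21 with Dox in the mutant line. Over all genes it was -0.50, -0.14 and 0.05. The points share their libraries, and the part of base composition in the members' shift was not tested. The median transcript length was 1722 bases for members and 3820 bases for all genes above 4 FPKM at Day 0. The shorter and longer members had Day 4 medians of -0.29 and -0.21.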

How the data were processed

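Poly(A) RNA of 7 samples was sequenced in strand-marking libraries as 150-base single-end MiSeq reads. The authors mapped reads to hg19 and deposited FPKM values per gene with lower and upper 95% bounds. The submitters' processing notes name CASAVA 1.4, TopHat2 2.0.13 and Cufflinks 2.1.1. Whether counting used strand is not given in the sources used here.

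Groups followed the sample titles. Genes above 4 FPKM in either library were compared by log2 ratios with a pseudocount of 1, by the study's cutoffs (ratio above 2 or below 0.5 with more than 4 FPKM in the higher library) and by intervals that did not overlap. With 1 library per condition there is no test. Named members were the 5 largest rises and falls in each line, the 5 highest and lowest by mean, and the MRPS18 paralogues. Pathway genes were named by the 3 largest each way over these lists together, and other named genes are those with intervals apart. Members and lists were chosen with earlier results of these data known. GC content and length came from GENCODE on GRCh37. Relative depth came from steps between low values in 245 single-exon genes. Calculations used Python 3.11.15, numpy 2.4.6, pandas 2.3.3 and matplotlib 3.10.9 and were tested on simulated data. Alternatives changed the pseudocount, the FPKM cutoff, the scaling, the genes included, the treated day and the untreated reference.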

Additional observations from a re-analysis of the deposited data

Results flagged for a closer look

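The shift of the members with Dox differed between the lines. The median log2 ratio in the JMJD3c line minus that in the mutant line was -0.23. This difference was not tested, since each line has 1 library with and 1 without Dox at Day 4. With the untreated mutant library as the reference for Day 4, the JMJD3c median was -0.04.

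Among members with Day 4 intervals below Day 0, MRPL2 and MRPS30 had ratios of opposite sign in the lines. The log2 ratio in the JMJD3c line minus that in the mutant line was -1.03 for MRPL2 and -0.88 for MRPS30, and neither difference was tested. MRPL2 was at 28.4 FPKM in the untreated mutant line, below its Day 4 level, and MRPS30 at 52.5 FPKM, above its Day 4 level.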

How the results depend on the processing

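The results depended most on the untreated library. With the other line's untreated library as the reference, the Day 4 median went from -0.22 to -0.04. In that setting 1 member was more than 2-fold higher at Day 4, against 708 of 10045 genes. The intervals of 2 members were above (2.67%, background 8.65%) and those of 9 below instead of 6 (12%, background 9.96%). Set against Day 0, the mutant line with Dox had a median of -0.16 in place of 0.01. It had 2 members more than 2-fold higher, 5 more than 2-fold lower, 4 with intervals above and 10 below. The shares over all genes were not calculated for this comparison, so these counts cannot be set against a background. Under the other alternatives the Day 4 median lay between -0.27 and -0.16. With Day 3 in place of Day 4, 3 members lay below Day 0. An alternative chosen after seeing the data, which asked for intervals apart from both untreated libraries, left 3 members below. The cause was not tested. No paired analysis was possible because each condition has 1 library and no replicate number. No library could be left out within a condition. Scaling the libraries moved the median of all genes by at most 0.06 on the log2 scale.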
